A study of Homo sapiens with 6 samples.

Results

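A set of 10 genes that mark or specify the myeloid lineage was followed across 6 RNA-seq libraries of SEM, an established human cell line labelled as B-cell acute lymphoblastic leukaemia. These are 10 of the 62703 genes counted: the transcription factors SPI1, CEBPA, CEBPB and CEBPD, the surface proteins CD33 and CSF1R, and the products LYZ, MPO, VCAN and CD68. Each symbol matched 1 versioned Ensembl ID, and the genes were taken by name, not by their values. SEM carries the KMT2A::AFF1 fusion. The knock-down group (KD, 3 libraries) received a pair of Dicer-substrate siRNAs placed on the back-splice junction of AK_8_2, a circular RNA of the fusion gene. The negative control group (NC, 3 libraries) received a commercial duplex without a target. Both groups were lipofected in the same way, first in reverse and again in forward mode 24 h later, so lipofection and a duplex RNA are shared by all 6 libraries, and no untreated cells are compared here. All libraries come from 1 line, and gene counts do not measure the circular RNA, so the depth of its silencing is not given here. The question addressed is which of these genes SEM transcribes, as a check for a switch from the B to the myeloid lineage, and whether they differ after the knock-down.

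Myeloid cells arise from progenitors in which PU.1, the product of SPI1, and C/EBP factors act together on genes for growth factor receptors, granule enzymes and phagocyte proteins. PU.1 is also used by B cells, at a lower dose than in macrophages. KMT2A-rearranged leukaemias of B-precursor type are known for carrying some myeloid features and for relapsing, in some patients, as myeloid disease.

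The libraries held 14750579 to 26694160 counts on genes. Replicate 1 of KD and of NC differed from the rest: 50.03% and 48.6% of their records lay outside annotated features, against 11.3% to 17.3% in the other 4, and counts were seen on 53121 and 52077 genes against 30641 to 32311. KD replicate 3 differed in another way: 31.5% of its records were not uniquely aligned, against 4.70% to 17.3% in the other libraries. To read levels near 0, 381 olfactory receptor genes, which a blood cell is not known to need, were summed in each library. Their pooled level was 0.216 and 0.225 RPKM (CPM per kilobase of exon, where CPM is the count scaled to a library of 1000000 counts) in the replicate 1 libraries and 0.0103 to 0.0127 RPKM in the rest. The B-cell precursor markers were seen in part: 15 of 20 genes stood at 1 CPM or more in every library, with PAX5, TCF3 and EBF1 among the highest. These 15 include VPREB1, IGLL1 and RAG2. The markers RAG1, DNTT, BLNK, CD24 and MME did not, and none of them reached 1 CPM outside the replicate 1 libraries. There DNTT had at most 3 counts and MME at most 4. Markers of other lineages (38 genes) had a median of 0.658 to 0.755 RPKM in the replicate 1 libraries and of 0.0124 to 0.0198 RPKM in the other 4, where 7 of them reached 1 CPM against 28 in replicate 1. The line of 1 CPM was therefore passed by most genes of unrelated cells in replicate 1. In bulk RNA, a change in the number of cells of a type and a change in RNA per cell cannot be told apart.

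A gene was called on in a library at 1 CPM or more, low below that with more than 3 counts, and at the floor with 3 counts or fewer. Of the 10 genes, 7 were on in every library: SPI1, CEBPA, CEBPB, CD33, CSF1R, LYZ and VCAN. By the same rule 20.4% of all counted genes and 55.0% of 19848 protein-coding genes were on in every library. CEBPD and CD68 were on in none. MPO was on only in the replicate 1 libraries. This split was the same in KD and NC, as the plot of CPM by library shows.

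**Figure D1:**
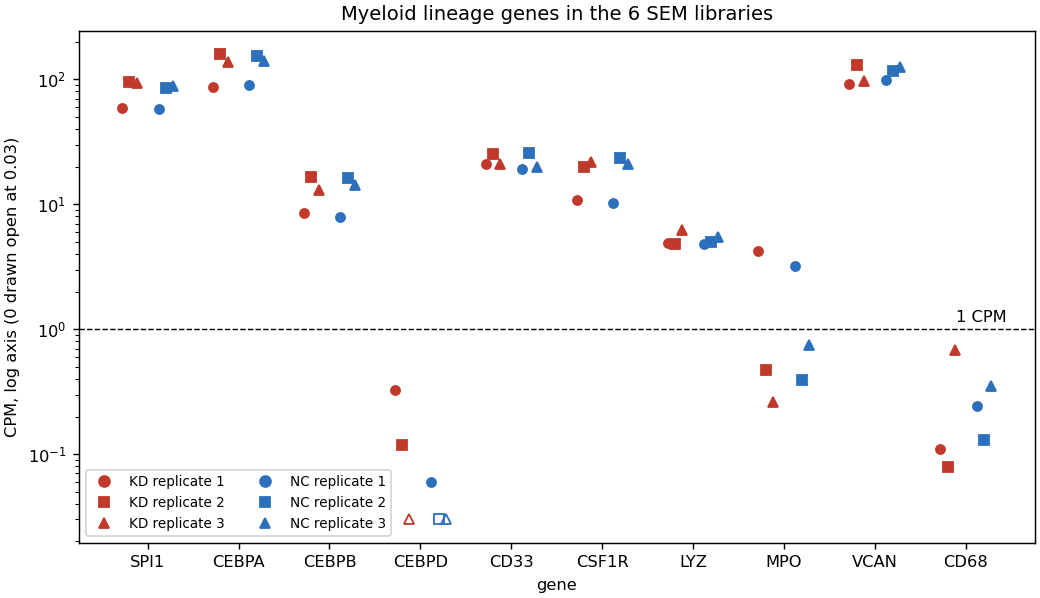
CPM of the 10 genes (x axis) in each library on a log axis; colour gives the group and symbol the replicate number, open symbols are 0 counts drawn at 0.03, and the dashed line marks 1 CPM. The 7 genes that were on in every library lie above the line with KD and NC interleaved, MPO lies above it only in the replicate 1 libraries, and CEBPD and CD68 lie below it throughout.

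SPI1 encodes PU.1, the ETS-family factor without which macrophages and granulocytes do not form. SPI1 (ENSG00000066336.12, chromosome 11, 47354860 to 47378576, minus strand, GRCh38) had 1089, 2410 and 1783 counts in KD replicates 1, 2 and 3, or 59.3, 94.5 and 93.4 CPM, and 951, 1947 and 2021 counts in NC, or 57.3, 84.6 and 88.2 CPM. The replicate 1 libraries were the lowest in both groups and the ranges of the groups overlapped. Per exon length SPI1 exceeded 94.2% to 95.7% of protein-coding genes.

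CEBPA encodes C/EBPα, which takes progenitors into the granulocyte and monocyte lineage and can turn B cells into macrophages when forced on. CEBPA (ENSG00000245848.3, chromosome 19, 33299934 to 33302564, minus strand) is a gene of 1 exon. It had 1604, 4024 and 2600 counts in KD, or 87.4, 158 and 136 CPM, and 1501, 3512 and 3208 counts in NC, or 90.4, 153 and 140 CPM. It was the highest of the 10 genes per exon length, at 33.2 to 59.98 RPKM, above 95.4% to 96.8% of protein-coding genes. The groups overlapped, again with replicate 1 lowest in both. A pair of antisense genes overlaps 25.05% and 18.3% of its exon. They had at most 18 counts in any library, and since the strand setting of the counting is not known, reads in the shared bases may be missing from CEBPA.

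CEBPB encodes C/EBPβ, a relative of C/EBPα that is raised in activated macrophages and emergency granulopoiesis. CEBPB (ENSG00000172216.6, chromosome 20, 50190734 to 50192689, plus strand) had 156, 421 and 246 counts in KD, or 8.50, 16.5 and 12.9 CPM, and 132, 372 and 327 in NC, or 7.95, 16.2 and 14.3 CPM. In every library it was on, and per exon length it lay below CEBPA in each.

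CEBPD encodes C/EBPδ, an acute-phase member of the family. CEBPD (ENSG00000221869.5, chromosome 8, 47736909 to 47739086, minus strand) had 6, 3 and 0 counts in KD and 1, 0 and 0 in NC. A library with 0 counts allows up to 3, or 0.157 CPM in KD replicate 3 and 0.130 and 0.131 CPM in NC replicates 2 and 3. The single library with more than 3 counts, KD replicate 1, had 0.150 RPKM, below the pooled olfactory receptor level of 0.216 RPKM there. Of the C/EBP genes among the members, CEBPA and CEBPB were thus on and CEBPD was at or near the floor.

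CSF1R encodes the receptor for the macrophage growth factor M-CSF, a receptor tyrosine kinase. CSF1R (ENSG00000182578.14, chromosome 5, 150053291 to 150113372, minus strand) had 199, 506 and 419 counts in KD, or 10.8, 19.8 and 22.0 CPM, and 170, 542 and 484 in NC, or 10.2, 23.5 and 21.1 CPM. The 2 groups overlapped, and the replicate 1 libraries of both had lower CPM than the other 4 libraries. CD33 encodes a sialic acid-binding inhibitory receptor of myeloid cells that is targeted by an antibody-drug conjugate. CD33 (ENSG00000105383.15, chromosome 19, 51225064 to 51243860, plus strand) had 384, 640 and 397 counts in KD, or 20.9, 25.1 and 20.8 CPM, and 320, 596 and 459 in NC, or 19.3, 25.9 and 20.0 CPM. Its level varied less between libraries than that of CSF1R: the highest CPM was 1.34 times the lowest for CD33 and 2.30 times for CSF1R.

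PU.1 is known to act on the promoters of both receptor genes, and SPI1 was on, so the bases before their starts are shown. From the RefSeq promoter table (GRCh38.p14), 8 windows of 6 of the 10 genes were examined (VCAN, CSF1R, CD68, CEBPA, CD33 and CEBPB). Windows of the other members were not examined, so nothing is said of their bases. The purine-rich core GAGGAAG, in which PU.1 sites are often written, was searched on both strands in the 300 bases from 250 before to 50 after each start. It was found in 1 of the 2 CSF1R windows and in the CD33 window, and in 13.6% of 35116 windows of all genes. The CSF1R window that holds it is that of the downstream start, and the upstream one (chr5:150113316-150113615, minus strand) has none. TTGCNNAA, a form of the C/EBP site, was searched in the same way. Of the 8 windows it was found only in that of CD68, and it was in 10.5% of the windows of all genes. The 250 bases before the start are printed 5′ to 3′ on the strand of the gene, with the matches in capitals. CSF1R lies on chr5:150086555-150086804, minus strand, with the match 20 bases before the start, and CD33 on chr19:51224830-51225079, plus strand, with the match on the opposite strand 11 bases before the start and another one, not shown, 28 bases after it.
CSF1R: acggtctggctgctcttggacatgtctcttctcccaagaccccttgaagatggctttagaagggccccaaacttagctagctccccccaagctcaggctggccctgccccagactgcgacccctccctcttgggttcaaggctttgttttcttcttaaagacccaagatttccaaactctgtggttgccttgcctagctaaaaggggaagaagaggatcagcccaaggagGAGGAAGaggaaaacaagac
CD33: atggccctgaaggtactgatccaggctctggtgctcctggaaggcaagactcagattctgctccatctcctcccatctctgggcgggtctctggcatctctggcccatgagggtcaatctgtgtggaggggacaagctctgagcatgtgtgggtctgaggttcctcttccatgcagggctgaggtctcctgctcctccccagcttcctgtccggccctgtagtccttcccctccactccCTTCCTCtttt
A match is a description of letters and not a measured binding site, and gene counts do not tell which start was used.

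VCAN encodes versican, a large proteoglycan of the extracellular matrix that is abundant in monocytes. VCAN (ENSG00000038427.16, chromosome 5, 83471465 to 83582303, plus strand) had 1693, 3287 and 1864 counts in KD, or 92.3, 129 and 97.7 CPM, and 1646, 2688 and 2875 in NC, or 99.1, 117 and 125 CPM. Its counts were close to those of CEBPA, but its exons span 14831 bases against 2631, so per exon length it was lower, at 6.22 to 8.69 RPKM. KD replicate 3 was low beside KD replicate 2 and NC replicate 3, and the groups overlapped. The part of the larger share of records not uniquely aligned in KD replicate 3 was not tested.

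LYZ encodes lysozyme, the bacterial cell wall enzyme that is among the most abundant messages of monocytes. LYZ (ENSG00000090382.7, chromosome 12, 69348341 to 69354234, plus strand) had 90, 123 and 119 counts in KD, or 4.90, 4.82 and 6.24 CPM, and 80, 115 and 126 in NC, or 4.82, 4.99 and 5.50 CPM. It was the lowest of the 7 genes that were on by CPM and by mean RPKM over the full exon length. LYZ was also the steadiest of them, with a highest CPM 1.29 times the lowest. An antisense gene with at most 3 counts in a library overlaps 34.0% of its exon bases. The whole count of LYZ divided by its 1165 unshared bases gave 4.14 to 5.35 RPKM. CD33, which shares no exon bases, had 3.23 to 4.33 RPKM. The place of LYZ by RPKM is therefore not settled if the counting ignored strand.

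MPO encodes myeloperoxidase, the granule enzyme used to assign a leukaemia to the myeloid lineage. MPO (ENSG00000005381.9, chromosome 17, 58269856 to 58280935, minus strand) had 78, 12 and 5 counts in KD, or 4.25, 0.471 and 0.262 CPM, and 53, 9 and 17 in NC, or 3.19, 0.391 and 0.742 CPM. The replicate 1 libraries of both groups were the highest, the reverse of SPI1, CEBPA, CEBPB and CSF1R, which were lowest there in both groups. At 1.21 and 0.905 RPKM in these libraries, MPO was 5.58 and 4.03 times the pooled olfactory receptor level. It was under the highest single olfactory receptor gene (1.79 and 1.60 RPKM) and above the median of the markers of other lineages (0.755 and 0.658 RPKM). In the other 4 libraries it had 0.0743 to 0.210 RPKM, 6.89 to 20.3 times the lower pooled olfactory receptor level there. That was again under the highest single gene and above the median of those markers (0.0124 to 0.0198 RPKM). MPO did not reach 1 CPM in any of these 4 libraries. The part of the raised background of replicate 1 in these values was not tested.

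CD68 encodes a lysosomal membrane protein of macrophages, and its count could not be read as a level. CD68 (ENSG00000129226.14, chromosome 17, 7579467 to 7582113, plus strand) had 2, 2 and 13 counts in KD and 4, 3 and 8 in NC, and the highest value in each group was in replicate 3. In GENCODE 29 another gene on the same strand, ENSG00000264772 (7572826 to 7582024), shares 81.7% of the exon bases of CD68, and 311 bases are shared with no gene. A read that lies in exons of 2 genes goes to neither under the usual htseq-count rule, although the rule used here is not stated. The same gene runs over 41.1% of the exon bases of EIF4A1, a translation initiation helicase upstream of CD68. EIF4A1 had 3.25 to 6.98 RPKM, against 37.2 to 47.5 RPKM for its close relative EIF4A2 and 16.8 to 21.8 RPKM for EIF4A3. Another gene, SENP3-EIF4A1, had 11 to 24 counts, and the bases it shares with EIF4A1 were not measured. These genes were looked at after the overlap at CD68 had been seen. The whole count of CD68 divided by the unshared 311 bases gave 0.252 to 2.19 RPKM; if the counting used strand, the unshared length is 400 bases. The part of the overlap in the low count was not tested.

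Per exon length the genes other than CD68 fell into 3 tiers, and between tiers no 2 libraries overlapped. CEBPA had 48.4 ± 11.7 RPKM and SPI1 38.5 ± 8.15 RPKM (SD, n = 6 libraries of both groups); their ranges overlapped, though CEBPA was higher in 6 of 6 libraries. VCAN (7.42 ± 1.06), CEBPB (6.50 ± 1.90), CD33 (3.68 ± 0.465), CSF1R (3.48 ± 1.13) and LYZ (2.95 ± 0.319 RPKM, SD, n = 6) followed, and each neighbour in this order overlapped the next. CD33 exceeded CSF1R in 3 of 6 libraries, which gives them no order. These levels use full exon lengths, and the place of LYZ among them is not settled if the counting ignored strand. MPO and CEBPD lay below all of these, at no more than 1.21 and 0.150 RPKM. CD68 had at most 0.311 RPKM over its full exon length, but its place is not settled, since its count set against the unshared bases reached 2.19 RPKM, inside the range of CSF1R. All 7 genes that were on exceeded the highest olfactory receptor gene of the same library in every library, and MPO and CEBPD did so in none. For comparison, the B-cell factor PAX5 stood at 88.2 to 135 RPKM and EBF1 at 37.1 to 56.1 RPKM. The ranges of CEBPA and SPI1 over all libraries overlapped that of EBF1. Within each library, however, SPI1 lay below EBF1. CEBPA, over its full exon length, lay above EBF1 in replicate 2 of both groups and below it in the other libraries. The whole count of CEBPA divided by its 1490 unshared bases gave 58.7 to 106 RPKM, above the range of EBF1. The order of CEBPA and EBF1 is therefore not settled, since the strand setting is not known.

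**Figure D2:**
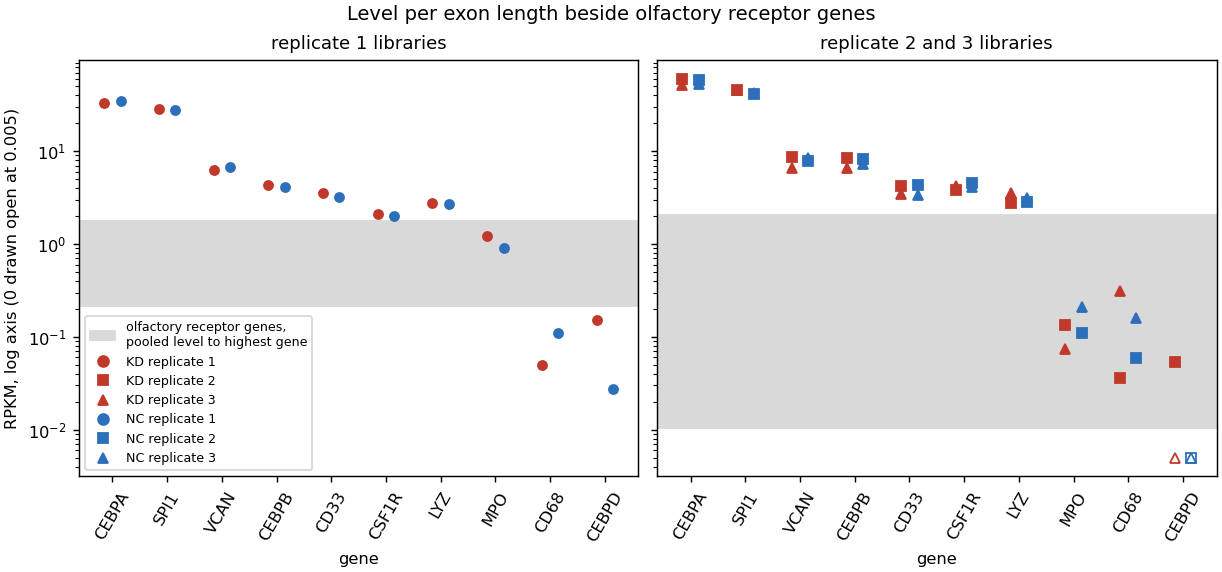
RPKM of the 10 genes on a log axis, ordered by mean level over the full exon length, for the replicate 1 libraries (left) and the replicate 2 and 3 libraries (right); the grey band runs from the pooled level of 381 olfactory receptor genes to the highest of them, and open symbols are 0 counts. CEBPA to LYZ lie above the band in both panels, and MPO lies inside it in both.

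No change was detected in the 10 genes between KD and NC. Of them, 8 had enough counts to be tested, and 0 of 8 passed. The quasi-likelihood test of edgeR, with Benjamini-Hochberg adjustment over 16929 genes, called 0 of them (0%), with 52 at an unadjusted p under 0.05, none of them a member, and DESeq2 called 1, not a member. The tested members had a median log2 fold change of 0.02 (KD over NC; 4 higher, 4 lower) against -0.00 over all genes. Once the replicate number was added as a block, 29 genes passed (0.171%), none a member, the median over members was -0.01 against -0.01, and the smallest unadjusted p was 0.0765, for SPI1.

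The intervals show how large a change these libraries leave room for. For SPI1, KD libraries averaged 82.4 ± 20.0 CPM and NC libraries 76.7 ± 16.9 CPM (SD, n = 3 per group), a log2 fold change of 0.10 (SE 0.22, 95% interval -0.41 to 0.62) without the block and 0.10 (SE 0.05, -0.01 to 0.21) with it. CEBPA averaged 127 ± 36.1 and 128 ± 32.9 CPM and stood at -0.01 (-0.61 to 0.60), or -0.01 (-0.12 to 0.09) with the block. VCAN averaged 106 ± 19.8 and 114 ± 13.4 CPM and stood at -0.10 (-0.45 to 0.26), or -0.10 (-0.32 to 0.11) with the block. The blocked estimates were -0.01 for CEBPB, 0.04 for CD33, -0.05 for CSF1R and 0.05 for LYZ. For 7 of the 8 tested members the blocked 95% interval lay inside a 1.5-fold change in either direction; without the block 2 did, and 7 did without the block when replicate 1 of both groups was left out. MPO was the exception, at -0.03 with an interval of -0.82 to 0.77, and its estimate turned from 0.22 to -0.58 without the block when the replicate 1 libraries were left out. CEBPD and CD68 had too few counts for the test. CEBPD had 9 counts over the KD libraries and 1 over the NC libraries, and CD68 had 17 and 15.

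Within replicate numbers the ratios of KD to NC lay between 0.778 and 1.13 for the 7 genes that were on in every library, as the plot of ratios by replicate shows. Each has an exact (Clopper-Pearson) 95% interval that covers counting error only and compares 2 libraries, not the conditions. SPI1 had ratios of 1.04 (0.949 to 1.13), 1.12 (1.05 to 1.19) and 1.06 (0.993 to 1.13) in replicates 1, 2 and 3. It was higher in KD in all 3, with 1 interval above 1. CEBPA had 0.967, 1.03 and 0.973 and all 3 intervals held 1, as did those of CEBPB, CD33 and LYZ.

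VCAN had intervals on both sides of 1. Its ratios were 0.931 (0.869 to 0.997), 1.10 (1.05 to 1.16) and 0.778 (0.734 to 0.825) in replicates 1, 2 and 3, so 2 pairs were lower and 1 higher in KD. CSF1R was lower in replicate 2 (0.843, 0.745 to 0.953) and its intervals held 1 in the other pairs. MPO was lower in replicate 3, where 5 counts stood against 17 (0.353, 0.102 to 0.997). Over all 12804 genes that were on in every library, intervals above 1 made up 11.7%, 14.6% and 15.5% in replicates 1, 2 and 3, and intervals below 1 made up 11.6%, 13.7% and 14%. Among the 7 members on in every library, 2 of 21 intervals lay above 1 and 3 below. No member had groups that did not overlap in CPM, against 3.3% of those genes.

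**Figure D3:**
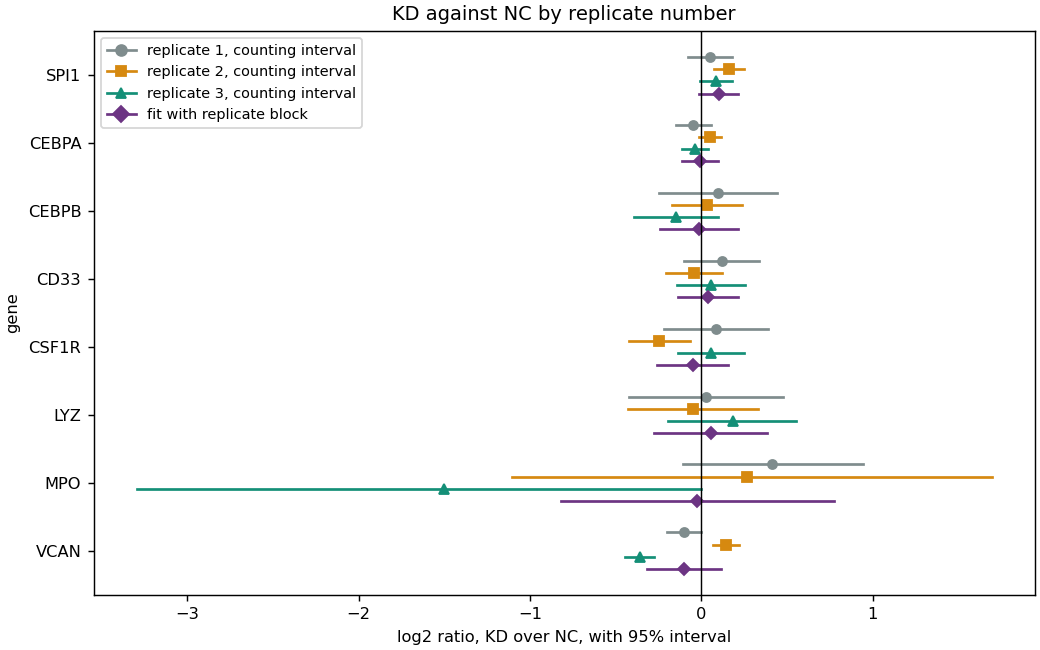
Log2 ratio of KD to NC (x axis) for the 8 tested genes, within each replicate number with its exact counting interval and from the fit with the replicate block with its 95% interval. SPI1 lies to the right of 0 in all 3 replicates, VCAN changes side between replicates 2 and 3, and every interval of the blocked fit holds 0.

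A wider list of 73 myeloid genes was on in part. In every library 26 were on, 15 were on in none, and 24 were on in both replicate 1 libraries and in none of the other 4. These are 35.6%, 20.5% and 32.9% of the list, against 55.0%, 15.3% and 22.1% of protein-coding genes. Of 12 transcription factors 7 were on in every library, including RUNX1 (642 CPM on average), a factor of all definitive blood lineages. Of 9 receptors 4 were, led by FLT3 (1166 CPM), the receptor kinase of early progenitors. Of 23 effector and monocyte genes 8 were on in every library, with PSAP (499 CPM), a lysosomal precursor, and CYBA (234 CPM), a subunit of the phagocyte oxidase, as the highest. Of 18 surface genes 6 were: ANPEP, ITGB2, FUT4, CD93, CD86 and FCGR2A. The effector and monocyte genes on in every library also included NCF4, CTSS, CST3, AIF1, NCF1 and LST1. Apart from PSAP and CYBA, these surface and effector genes were named after their values were seen.

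The granule group held the fewest genes that were on. Of 11 granule protein genes 1 was on in every library, SERPINB1, a protease inhibitor that is not itself a granule enzyme, at 20.3 to 24.2 CPM, and 7 were on in none. ELANE, neutrophil elastase, had 12, 0 and 1 counts in KD and 16, 0 and 1 in NC. S100A9, a calprotectin subunit, had 17, 0 and 0 in KD and 8, 0 and 0 in NC, and CD14, the monocyte co-receptor for bacterial lipopolysaccharide, had 37, 5 and 3 and 26, 4 and 3. For these 3, as for MPO, both replicate 1 libraries held the highest counts of their group. Most other granule genes showed the same: PRTN3, AZU1, LTF, CAMP, DEFA3, DEFA4 and RNASE3 had their highest count of each group in replicate 1. LTF, for example, had 59, 4 and 2 counts in KD and 65, 1 and 2 in NC. The exceptions by count were SERPINB1, CTSG and RNASE2. CTSG, cathepsin G, had 13, 21 and 11 counts in KD and 7, 16 and 8 in NC. RNASE2, an eosinophil ribonuclease, had 7, 7 and 5 and 3, 12 and 5. S100A9, CD14 and the granule genes named here were picked after their values were seen. The receptor genes CSF2RA and IL3RA were at or near 0, with a limit from the counting. Each is listed at 2 identical loci of the pseudoautosomal region and had at most 3 counts at either, but SLC25A6, an ADP/ATP carrier of most cells in the same region, also had 0 counts at its X locus in all 6 libraries. At its Y locus SLC25A6 had 71 to 223 counts, so reads of this region were in part counted there, while CSF2RA had 0 at both loci. SLC25A6 was chosen after these values were seen. Of the wider list 37 genes were tested and 0 rose and 0 fell, with or without the block; their median log2 fold change was 0.03 without and 0.04 with it.

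**Figure D4:**
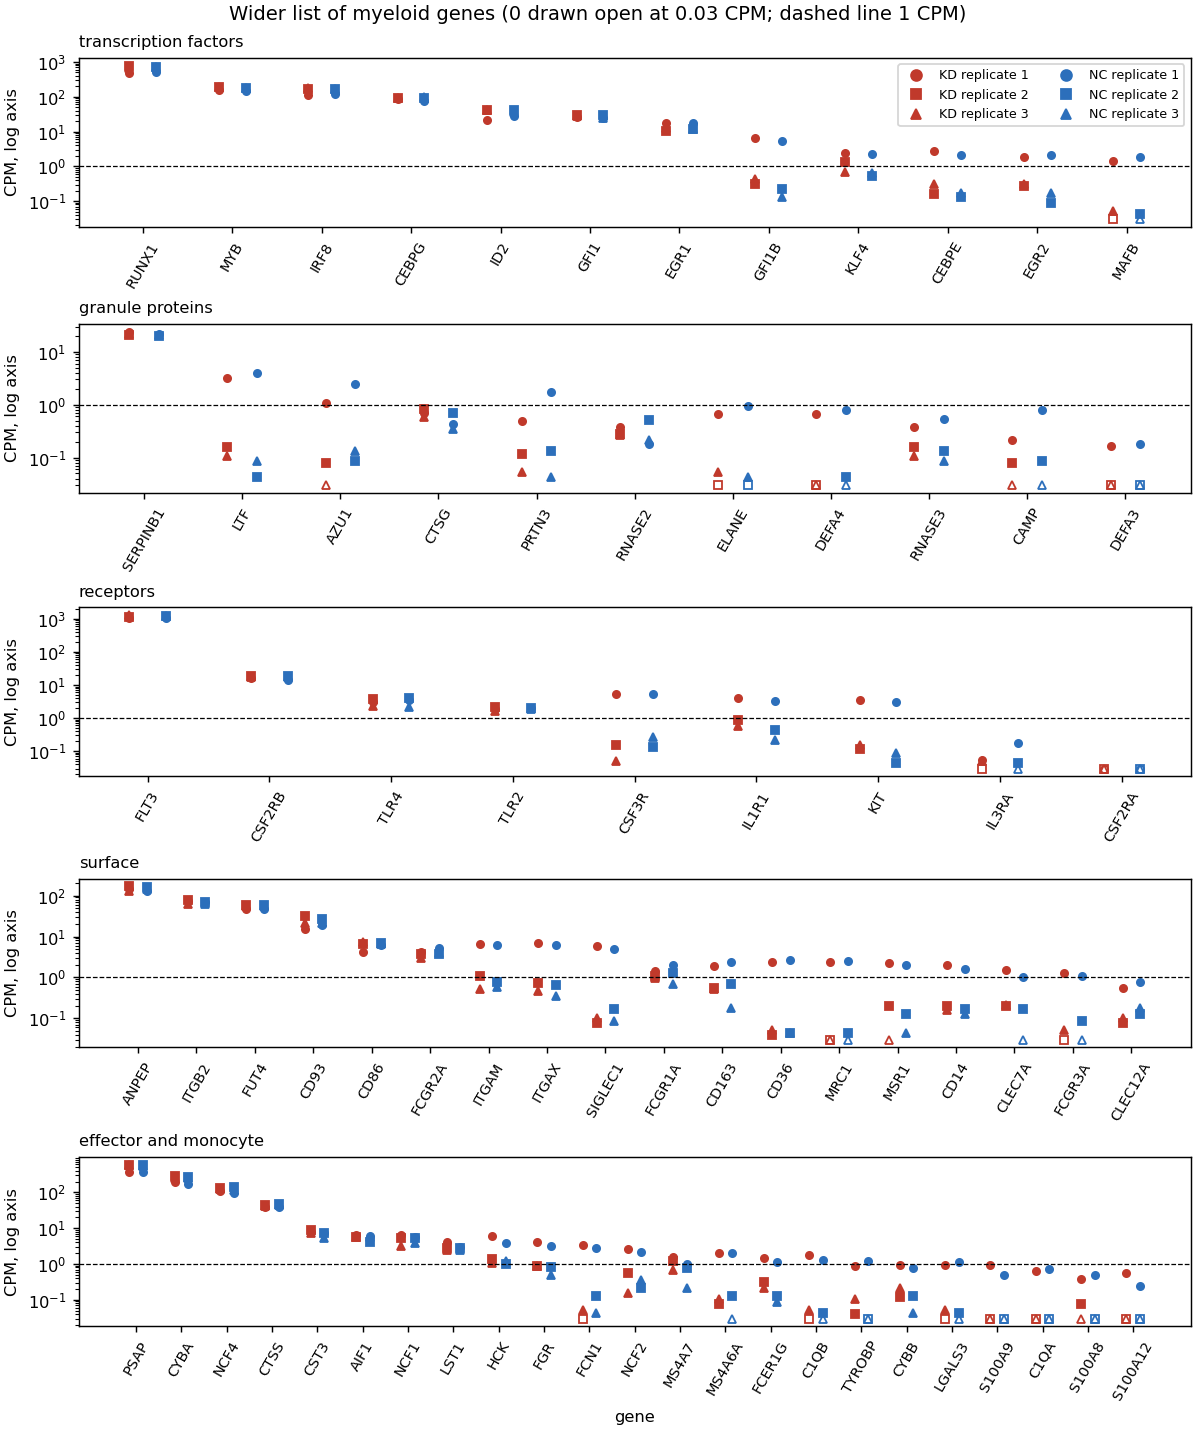
CPM on a log axis of the 73 genes of the wider myeloid list in 5 panels by role, 1 point per library, with the dashed line at 1 CPM and open symbols for 0 counts. The genes at the left of each panel lie above the line in all libraries, and most granule protein genes lie below it in all libraries.

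Partners and regulators of these factors were also examined. Of 16 such genes with an ID, 8 were on in every library, and 0 of 10 tested passed in either direction. CEBPG, a C/EBP family member that lacks an activation domain, had 75.6 to 97.2 CPM, and CEBPE, which is needed for late granulocytes, reached 1 CPM only in the replicate 1 libraries. TRIB2 (158 CPM on average) and TRIB1 (13.6 CPM) encode pseudokinases that direct C/EBPα protein to degradation, and both were on. SPIB, a relative of PU.1, stood at 7.99 CPM, ETV6 at 92.3 CPM, CEBPZ at 112 CPM and the stress factor DDIT3 at 11.5 CPM on average. CEBPA-DT, transcribed away from the CEBPA promoter, was on in every library at 4.36 to 6.98 CPM. CEBPB-AS1, antisense to CEBPB, was on in 5 of 6. The ligands of CSF1R, CSF1 and IL34, and the granulocyte factor CSF3, reached 1 CPM only in the replicate 1 libraries.

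Markers of other cell types were measured beside the 10 genes. The highest T cell genes were TRAC (82.6 CPM on average) and LCK (20.5 CPM). CD3D, CD3E and CD3G, which define T cells, had medians of 0.0169 to 0.0749 RPKM over the libraries. In the replicate 1 libraries these CD3 genes had 17 to 42 counts, against at most 3 in the other 4. The highest NK, erythroid and megakaryocyte genes were NKG7 (7.45 CPM), SLC4A1 (1.76 CPM, with 5.01 and 5.24 CPM in the replicate 1 libraries and at most 0.174 CPM in the other 4) and GP9 (3.08 CPM), and of the stromal and endothelial genes PECAM1 (38.4 CPM). PF4 had 0 counts in all 6 libraries. HBB, HBA1 and HBA2 had at most 9 counts in a library, in preparations from which globin transcripts had been depleted. The CD3, PF4 and globin genes were not among the highest of their lists and were named for the cells they define. No gene of these lists or of the B-cell list passed the test in either direction, with or without the block. The summed level of the 10 genes was 82.3, 134 and 122 RPKM in KD and 81.8, 127 and 123 RPKM in NC, and that of the 20 B-cell genes 434, 531 and 537 RPKM in KD and 428, 500 and 524 RPKM in NC. Both sums were lowest in replicate 1 of each group and overlapped between groups.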

How the data were processed

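Total RNA of 6 SEM libraries was sequenced on an Illumina NextSeq instrument from total RNA libraries depleted of globin transcripts, per the labels' protocols. The deposited files hold raw read counts per Ensembl gene (62703 IDs), 1 library per file, from htseq-count. The tools named per the submitters' processing notes are STAR 2.7.10a, HTSeq 0.11.1, FastQC 0.11.8 and DESeq2, with the build hg38. Not given in the sources used here are the annotation release, the strand setting and the rule for reads over 2 genes. The 5 summary lines of each file name no gene and entered neither library sizes nor tests; the shares of records are taken over these lines plus the counts on genes.

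Symbols came from a gene name table that held 62686 of the IDs, taking the ID with the highest mean count for a repeated symbol. Coordinates and exon lengths (union of exons) were taken from GENCODE 29 (GRCh38); 58264 IDs were found in it, and the release the authors counted on may be another. CPM used TMM-scaled library sizes, and RPKM is CPM per kb of exon. Groups came from the sample titles; the series' text calls the replicates independent, and p-values measure the spread between these libraries. Totals of 14750579 to 26694160 counts set the precision.

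KD was tested against NC with edgeR 4.0.16 in R 4.3.3 (filterByExpr, TMM, robust quasi-likelihood fit, group as the only term, Benjamini-Hochberg adjusted p under 0.05 over 16929 genes). The fit was tested on simulated data. Deviations from the group means correlated at 0.89, 0.62 and 0.61 between KD and NC libraries numbered 1, 2 and 3, above the limit of 0.1 set for pairs, so the fit with the replicate number as a block is given beside the main one. The labels state no pairing, and KD replicate 2 with NC replicate 3 correlated at 0.59. Alternatives were RLE size factors, DESeq2 1.42.0, no filter on low counts, leaving out libraries or pairs, and other thresholds for a gene that is on.

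The members and lists were chosen with earlier results of these data known. Genes were named by rule: the 10 members, up to 4 genes of highest mean CPM of the wider list and of each marker list, every gene of them that passed, and partners on in at least 1 library; defining markers of other cell types and genes picked after their values were seen are said to be so. Floors and intervals cover counting error only.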

Additional observations from a re-analysis of the deposited data

How the results depend on the processing

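Under the alternatives run, 7 of the 10 genes were on in every library each time, and 0 of the tested members passed each time. The number of genes passing was 0 except with DESeq2 (1), with the replicate block (29), with the block and no filter (68, chosen after seeing the data) and with the block without replicate 1, 2 or 3 (5, 119 and 73).

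No member's fold change passed in any fit. The estimate of each of the 8 tested members changed sign in at least 2 of the alternatives, and the cause was not tested. Leaving out 1 library moved the log2 fold change from -0.055 to 0.29 for SPI1, -0.22 to 0.20 for CEBPA, -0.29 to 0.19 for CEBPB, -0.092 to 0.19 for CD33, -0.33 to 0.18 for CSF1R, -0.093 to 0.14 for LYZ, -1.95 to 1.57 for MPO and -0.29 to 0.0022 for VCAN. The ends for MPO came without KD replicate 1 and without NC replicate 1. Without replicate 1 of both groups CEBPA stood at 0.0095 and MPO at -0.58. With the replicate block, MPO stood at -0.026, at -0.028 without the filter, at -0.56 without replicate 1 and at -0.093 without replicate 2. Also with the block, CEBPA stood at 0.0068 without replicate 1 and at 0.0090 without replicate 3, where CEBPB stood at 0.063, LYZ at -0.010 and VCAN at 0.031. CSF1R stood at 0.051 without replicate 2. There VCAN stood at -0.25, with an adjusted p of 0.0766 by edgeR. The block changed no call of a member.

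Limits: 3 libraries per group of 1 line, with replicate 1 unlike the others, bound 2 of 8 members within 1.5-fold in the unblocked fit and 7 with the block or without replicate 1; MPO, CEBPD and CD68 had too few counts for that.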
